A study of Mus musculus with 6 samples.

Results

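A set of 9 xenobiotic-metabolising enzyme genes of the nose was followed in RNA from the mouse vomeronasal organ, a tubular pheromone-sensing structure that runs along either side of the septum. The genes were 4 cytochrome P450 genes (Cyp2a5, Cyp2g1, Cyp2f2 and Cyp2b10), 2 glucuronosyltransferase genes (Ugt2a1 and Ugt2a2), 2 flavin monooxygenase genes (Fmo1 and Fmo2) and the glutathione transferase gene Gstm2. They were chosen by name, as enzymes listed for supporting cells and glands of the nasal mucosa. No measured value entered the rule, but the list was made with earlier results of these data known. They are 9 of the 35450 genes to which estimated reads were summed, and all 9 were among the 16679 genes that passed the filter on low counts. The study compared 3 wild-type mice (Cnpy1+/+) with 3 littermates homozygous for the knockout allele (Cnpy1-/-), all at postnatal day 60. How the allele was made is not given in the sources used here. Each genotype was represented by 2 males and 1 female. Wild-type replicate 2 and knockout replicate 3 were the females. RNA of the left and right organ of a mouse was combined into 1 directional poly(A) library, so each library is 1 mouse. All cells of the organ contributed, and fewer cells of a type cannot be told apart from less RNA per cell.

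The nasal mucosa carries a dense set of enzymes that modify odorants, inhaled toxicants and steroids. P450 and flavin monooxygenase enzymes add or expose an oxygen-containing group, in the first phase of the pathway. Glucuronosyltransferases and glutathione transferases then attach glucuronic acid or glutathione, which makes the product more soluble and, for an odorant, ends its action on receptors. In the main olfactory mucosa these enzymes are known from sustentacular (supporting) cells and Bowman's glands, and the vomeronasal epithelium has supporting cells of its own.

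The libraries held 60969508 to 71670766 estimated reads. Cnpy1, the targeted gene, was at 280.0 to 325 CPM in the wild types and 67.2 to 77.6 CPM in the knockouts (log2 fold change -2.04, SE 0.08, edgeR adjusted p = 1.75e-05). CPM here are read counts relative to all gene-assigned reads of a library, scaled between libraries by the trimmed mean of M values (TMM). Knockout replicate 3, the only female knockout, stood apart for several of the enzyme genes, so the genotype and sex differences and the profile distances that move most with it are also given without it. Defining hepatocyte genes were near 0: Alb, Apoa1, Ttr, Fgb and Serpina1a together reached at most 1.87 CPM in any library.

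The sequences of the Ugt2a locus are shown first, because 2 of the 9 genes are read from it and their values depend on how its reads were divided. In GENCODE M21 (GRCm38), Ugt2a1 (chr5:87459490-87490871, minus strand) and Ugt2a2 (chr5:87459490-87482260, minus strand) overlap, and the start of the Ugt2a1 transcript is 8613 bases from that of the full Ugt2a2 transcript. Each has a short leader exon and a large coding exon of its own, and both then use the same 5 exons. The shared exons make up 1771 bases, against 799 specific bases in the Ugt2a1 transcript (2570 bases in all) and 768 in the full Ugt2a2 transcript (2539 bases in all). The specific coding exons are 718 bases long in each gene and 52.2% identical. The last 60 specific bases (lower case) and the first 30 shared bases (capitals) are printed below, since this junction is where the transcripts become the same. They lie at chr5:87486029-87486088 for Ugt2a1 and chr5:87474390-87474449 for Ugt2a2, followed in both by chr5:87465527-87465556, and 39 of the 60 specific bases are identical.
Ugt2a1: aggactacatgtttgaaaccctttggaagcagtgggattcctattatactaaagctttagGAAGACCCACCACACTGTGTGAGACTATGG
Ugt2a2: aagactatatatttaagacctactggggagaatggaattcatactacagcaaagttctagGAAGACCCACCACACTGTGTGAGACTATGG
A second Ugt2a2 transcript of 929 bases has a leader of 27 bases and then only shared exon sequence, without the large specific exon. Of the 31-base words in the transcripts of Ugt2a1, 2.20% occur in no other gene quantified, and of those of Ugt2a2, 6.35%. The low shares come mainly from the partner gene, with 68.7% and 68.8% of the words, and from Gm43638, a gene model across the same locus that was at most 0.289 CPM.

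The genes also have separate promoters, and the 250 bases before each annotated RefSeq start (GRCm38.p6) are printed because the levels of Ugt2a1 and Ugt2a2 moved apart between libraries. Capitals mark matches on either strand to TTGGC, a core bound by nuclear factor I, as well as to the TATA box TATAAA. A match to the first on the reverse strand reads GCCAA. A reverse match to the other reads TTTATA. The windows are chr5:87490872-87491121 for Ugt2a1 and chr5:87482259-87482508 for Ugt2a2, both on the minus strand.
Ugt2a1: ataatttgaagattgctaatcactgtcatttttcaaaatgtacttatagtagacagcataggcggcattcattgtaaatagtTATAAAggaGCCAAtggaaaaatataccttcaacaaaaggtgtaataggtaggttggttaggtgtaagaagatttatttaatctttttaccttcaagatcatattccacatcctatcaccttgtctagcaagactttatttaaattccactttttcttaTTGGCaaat
Ugt2a2: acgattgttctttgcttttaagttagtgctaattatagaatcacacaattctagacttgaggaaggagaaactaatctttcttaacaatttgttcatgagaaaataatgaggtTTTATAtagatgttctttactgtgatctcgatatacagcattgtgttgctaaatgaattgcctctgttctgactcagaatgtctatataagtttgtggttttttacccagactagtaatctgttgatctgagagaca
The Ugt2a1 window holds 2 TTGGC matches and 1 TATAAA match, which begins 168 bases before the start. The Ugt2a2 window holds 1 TATAAA match, on the reverse strand and 137 bases before the start. RefSeq promoters matched 7 of the 9 genes (not Cyp2g1 or Fmo1) with 8 windows, 2 of them for Fmo2. TTGGC was in 5 of the 8 windows and in 41.5% of 32851 mouse promoters of the same length, TATAAA in 3 of the 8 and 12.4%. Matches were counted at any position, and the other TATAAA match, in Cyp2a5, begins 29 bases before the start. GCGTG, the core bound by the aryl hydrocarbon receptor, was in 1 of the 8 (28.2% of all), and TGACNNNGC, the antioxidant response core, in 0 of the 8 (10.2% of all).

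Levels were compared between genes per transcript length, as the deposited TPM summed per gene. Ugt2a2 had the highest level, 989 ± 187 TPM (SD, n = 6), followed by Cyp2f2 at 515 ± 57.5 and Cyp2a5 at 412 ± 75.8 TPM. Cyp2f2 was above Cyp2a5 within each of the 6 libraries, although their ranges over libraries overlapped. Ugt2a1 (115 ± 38.0 TPM) and Gstm2 (111 ± 11.4 TPM) came next and did not separate, with Ugt2a1 higher in 4 of 6 libraries. Cyp2g1 was at 66.0 ± 21.7, Fmo1 at 21.6 ± 2.61, Fmo2 at 13.8 ± 1.62 and Cyp2b10 at 3.42 ± 1.34 TPM. From Gstm2 down, each gene was above the next in 6 of 6 libraries. The first rank of Ugt2a2 depends on the reads given to the short transcript. The full transcript alone was at 371, 424 and 604 TPM in the wild types and 382, 329 and 588 TPM in the knockouts. Cyp2f2 was at 494, 486 and 579 TPM and at 549, 557 and 424 TPM. It was above the full Ugt2a2 transcript in all libraries but wild-type replicate 3 and knockout replicate 3. TPM also depends on everything else in a library, and the listed gland and lipocalin genes alone summed to 280007 to 415677 TPM. Comparisons between mice therefore use CPM. The 9 genes together took 0.253% to 0.348% of the reads in genes.

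**Figure D1:**
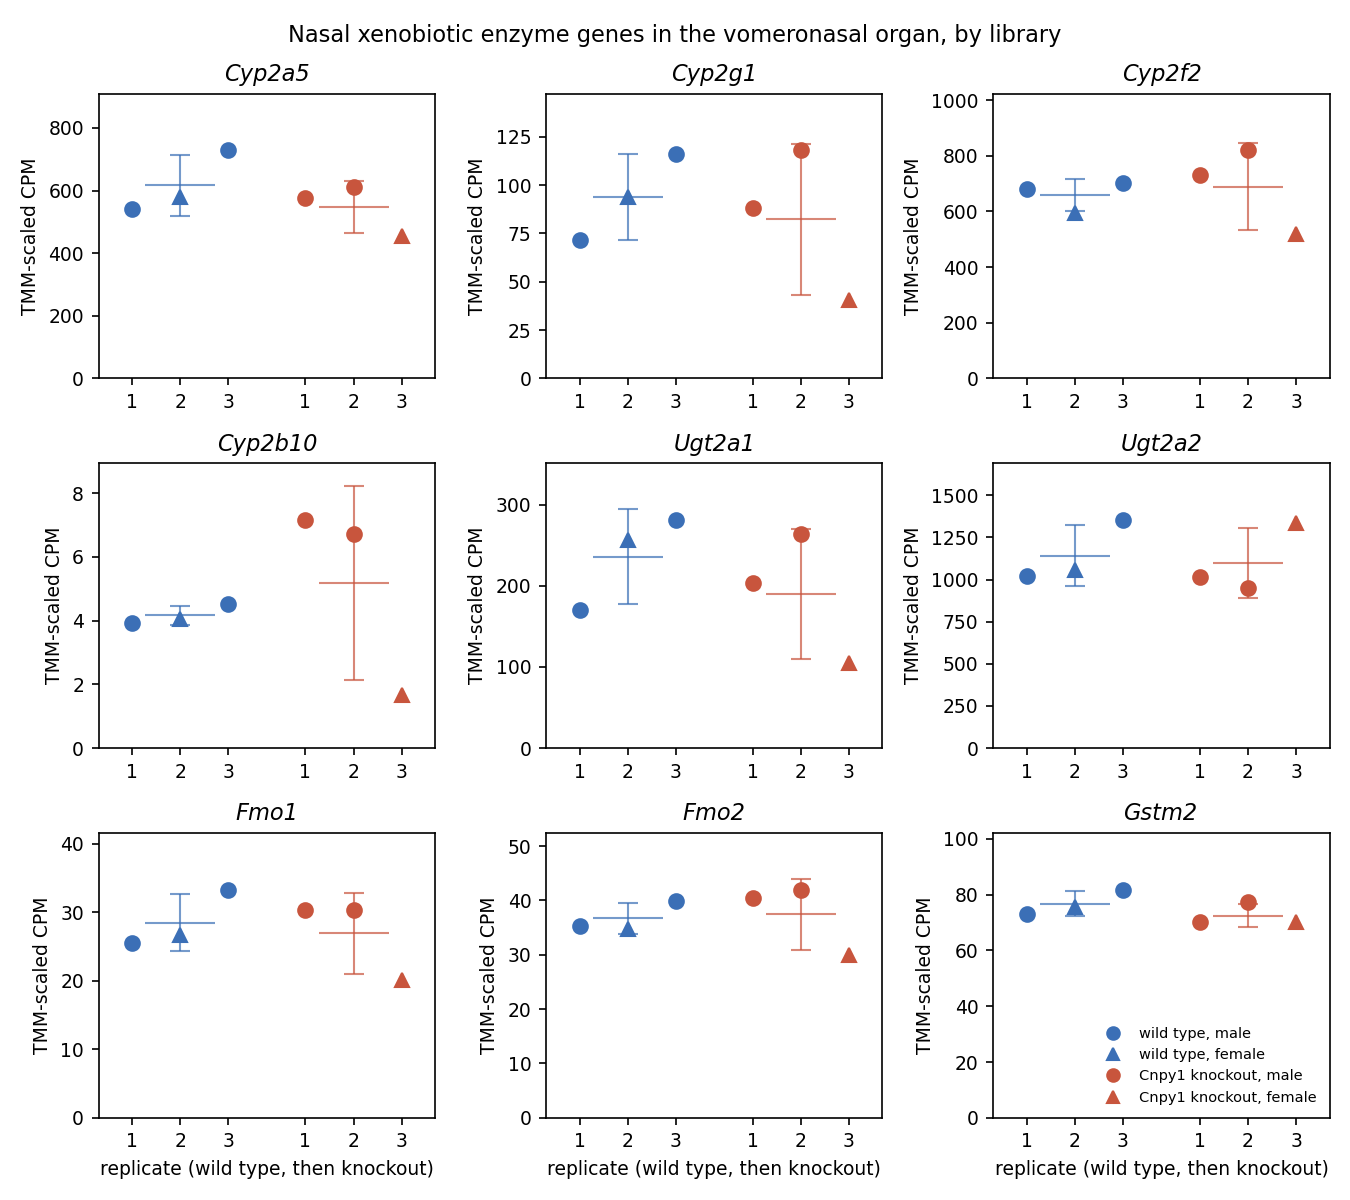
TMM-scaled CPM (vertical axis, from 0) of the 9 enzyme genes in each library (horizontal axis, replicate), with circles for males, triangles for females, and lines with bars for the mean and SD of each genotype (n = 3). The genotypes overlap for all 9 genes, and the triangle of the female knockout is the lowest point for 7 of them.

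The comparison of Cnpy1 knockout with wild type asked whether loss of Cnpy1 changed these enzymes. None of the 9 genes passed an adjusted p of 0.05 (edgeR quasi-likelihood test, Benjamini-Hochberg adjustment over 16679 genes), and 0 of 9 had an unadjusted p under 0.05. Over all genes tested, 0.761% were called and 10.5% had an unadjusted p under 0.05. DESeq2's Wald test and limma-voom also called 0 of 9, beside 2.46% and 0.719% of all genes. The genotypes overlapped for every one of the 9, whereas their libraries did not overlap for 16.2% of all genes. Of the 9 fold changes, 6 were below 0, with a median log2 fold change of -0.08 beside 0.01 over all genes tested. This direction rests on single libraries. Without knockout replicate 3, 4 of 9 were below 0 with a median of 0.09, and among males only 3 of 9 with a median of 0.048. Without wild-type replicate 3, the highest library for 5 of the 9, Ugt2a2 (0.083) and Fmo1 (0.046) turned above 0. The p-values measure the spread between these mice, which the labels call biological replicates.

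The P450 genes lie within one stretch of chromosome 7, on its plus strand. Cyp2a5 (ENSMUSG00000005547.14, chr7:26835305-26843548), which oxidises coumarin and nicotine and is abundant in olfactory mucosa and liver, had 540.5, 581 and 728 CPM in the wild types and 578, 612 and 455 CPM in the knockouts. The highest and the lowest library belonged to wild-type replicate 3 and knockout replicate 3, and the others interleaved. The fitted log2 difference, knockout minus wild type, was -0.17 (SE 0.14, 95% interval -0.49 to 0.15, edgeR adjusted p = 0.746). It was -0.033 without wild-type replicate 3, -0.051 without knockout replicate 3, and -0.26 without knockout replicate 2. Cyp2a5 shares 44.9% of its 31-base words with Cyp2a4 and 23.4% with Cyp2a21-ps. Those relatives had at most 0.242 CPM as the authors' reads were divided.

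Cyp2f2 (ENSMUSG00000052974.8, chr7:27119909-27133660), the P450 that activates naphthalene in mouse airway, had 679.5, 595 and 704 CPM in the wild types and 732, 819 and 518 CPM in the knockouts. The knockouts held both the highest and the lowest library. On the log2 scale the knockouts differed by 0.06 (SE 0.15, 95% interval -0.29 to 0.42, edgeR adjusted p = 0.935). All of its 31-base words are unique to it.

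Cyp2g1 (ENSMUSG00000049685.8, chr7:26808892-26821205) encodes a P450 known for its near restriction to olfactory mucosa and is the neighbour of Cyp2a5. It had 71.4, 93.7 and 116 CPM in the wild types and 88.4, 118 and 40.7 CPM in the knockouts. The male knockouts lay within or just above the wild-type range, and the female knockout lay below it. The log2 ratio of knockout to wild type was -0.19 (SE 0.34, 95% interval -0.97 to 0.59, edgeR adjusted p = 0.909), and without knockout replicate 3 it turned to 0.14 (adjusted p = 0.846). The interval of the fit with all libraries spans a ratio of 0.512 to 1.504, and differences within that range are not excluded.

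Cyp2b10 (ENSMUSG00000030483.14, chr7:25897620-25926624), the classical phenobarbital-inducible P450 of mouse liver, was the scarcest of the 9. It had 3.93, 4.06 and 4.51 CPM in the wild types and 7.15, 6.73 and 1.68 CPM in the knockouts, from 113 to 428 estimated reads. The male knockouts were above all wild types and the female knockout was below all of them. The fitted log2 difference, knockout minus wild type, was 0.31 (SE 0.44, 95% interval -0.69 to 1.32, edgeR adjusted p = 0.874). Without knockout replicate 3 it was 0.74 (SE 0.12, adjusted p = 0.0526), and among males only 0.72 (SE 0.14, adjusted p = 0.174), neither of which passed the threshold. The difference was 0.0076 without knockout replicate 1, 0.077 without knockout replicate 2, 0.11 with sex as a term and 0.0070 with limma-voom, with adjusted p of 0.951 to 0.998. Nr1i3, which encodes the receptor CAR through which phenobarbital acts, was too low to be tested.

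Ugt2a1 (ENSMUSG00000106677.1), the olfactory glucuronosyltransferase that conjugates odorants and steroids, had 170.5, 257 and 281 CPM in the wild types and 203, 263 and 105 CPM in the knockouts. Again the female knockout was below every other library while the male knockouts were inside the wild-type range. On the log2 scale the knockouts differed by -0.31 (SE 0.31, 95% interval -1.02 to 0.40, edgeR adjusted p = 0.802), and -0.02 without knockout replicate 3 (adjusted p = 0.987). It was -0.62 without knockout replicate 2, -0.50 without wild-type replicate 1 and -0.17 without wild-type replicate 3, none of them called. Ugt2a2 (ENSMUSG00000029268.14), its partner at the locus, had 1019, 1056 and 1352 CPM in the wild types and 1014, 947 and 1337 CPM in the knockouts. Here the female knockout was the second-highest library. The log2 ratio of knockout to wild type was -0.06 (SE 0.15, 95% interval -0.40 to 0.29, edgeR adjusted p = 0.943), and -0.22 without knockout replicate 3 (adjusted p = 0.555).

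The locus was also taken as a whole, which does not depend on how reads were divided between the genes. Together, Ugt2a1 and Ugt2a2 reached 1379 ± 229 CPM in the wild types and 1289.6 ± 131 CPM in the knockouts (mean ± SD of 3 mice each). This difference gave p = 0.7 in an exact permutation test, two-sided, which cannot go below 0.1 with these numbers of mice. Ugt2a1 took 14.3%, 19.6% and 17.2% of the locus reads in the wild types and 16.7%, 21.8% and 7.26% in the knockouts. The share of the female knockout was the lowest and that of knockout replicate 2 the highest, and the genotypes did not differ beyond this spread (17.03% ± 2.62 against 15.2% ± 7.36, SD, n = 3 each, exact permutation p = 0.8). The short Ugt2a2 transcript took 23.7% to 30.5% of the reads of Ugt2a2. These shares are the deposited estimates, with no read positions.

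**Figure D2:**
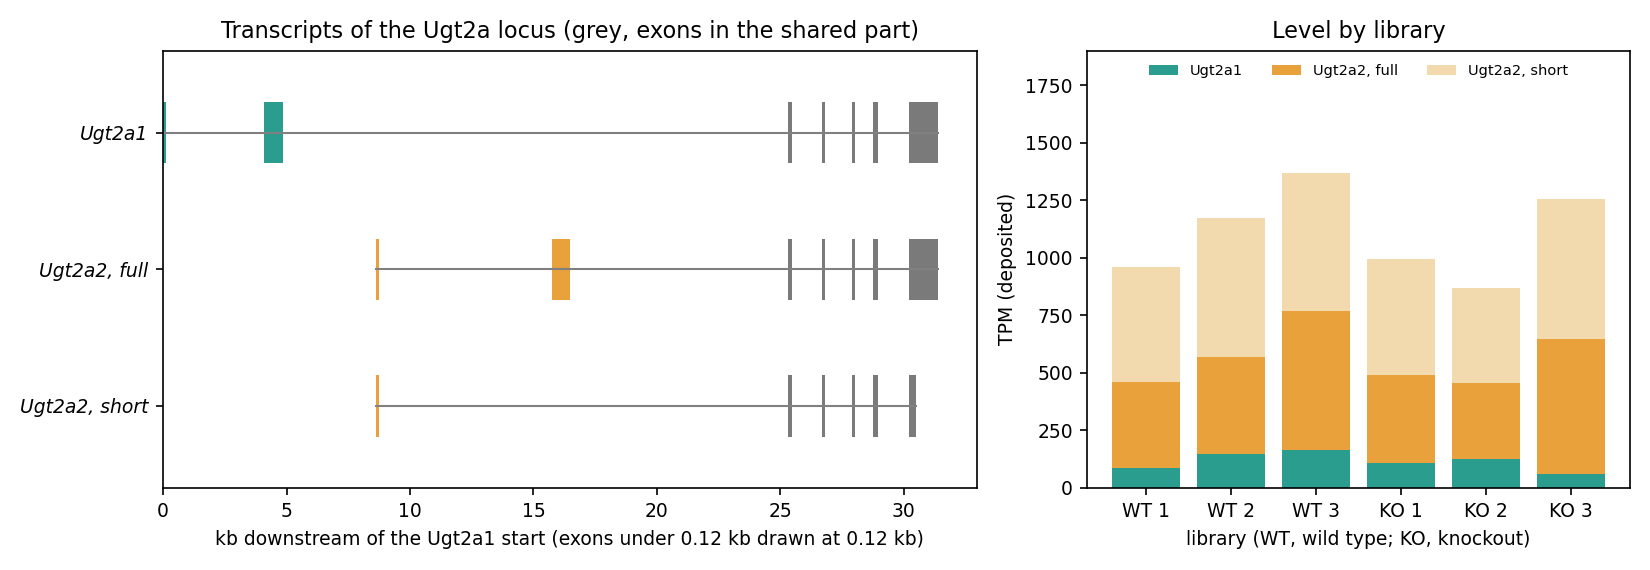
Left, exons of the Ugt2a transcripts by distance in kb from the Ugt2a1 start, with specific exons in colour and exons in the shared part in grey. Right, deposited TPM of the transcripts in each library, stacked. The Ugt2a1 segment is lowest in knockout replicate 3 (60.0 TPM) and reaches 162 TPM in wild-type replicate 3.

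Fmo1 and Fmo2 lie side by side on the minus strand of chromosome 1 and encode enzymes that oxygenate nitrogen and sulphur atoms. Fmo1 (ENSMUSG00000040181.14, chr1:162829561-162866610) had 25.5, 26.7 and 33.2 CPM in the wild types and 30.3, 30.4 and 20.1 CPM in the knockouts (log2 fold change -0.08, SE 0.17, edgeR adjusted p = 0.924). Fmo2 (ENSMUSG00000040170.13, chr1:162874317-162898726), the main form of lung, had 35.4, 34.8 and 39.9 CPM in the wild types and 40.4, 41.9 and 29.9 CPM in the knockouts (log2 fold change 0.03, SE 0.12, edgeR adjusted p = 0.969). For both, the female knockout was the lowest library and the male knockouts were among the higher ones. The transcripts of Fmo2 were divided unevenly. Its main coding transcript took 79.5% ± 2.85 of the Fmo2 reads in wild type and 90.9% ± 5.36 in the knockout (SD, n = 3 each), and a retained-intron transcript 13.4% ± 2.84 and 2.54% ± 4.41. The latter was listed at 0 in knockout replicates 2 and 3. No test was made of these shares, which were chosen after their values were seen.

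Gstm2 (ENSMUSG00000040562.12, chr3:107981702-107986453), a mu-class glutathione transferase, was the steadiest of the 9. It had 73.1, 75.7 and 81.7 CPM in the wild types and 70.1, 77.3 and 70.2 CPM in the knockouts, with a highest library 1.17 times the lowest. The fitted log2 difference, knockout minus wild type, was -0.08 (SE 0.06, 95% interval -0.23 to 0.07, edgeR adjusted p = 0.734). That interval corresponds to a ratio of 0.852 to 1.05, the narrowest of the set, whereas for Cyp2b10 it ran from 0.619 to 2.49.

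**Figure D3:**
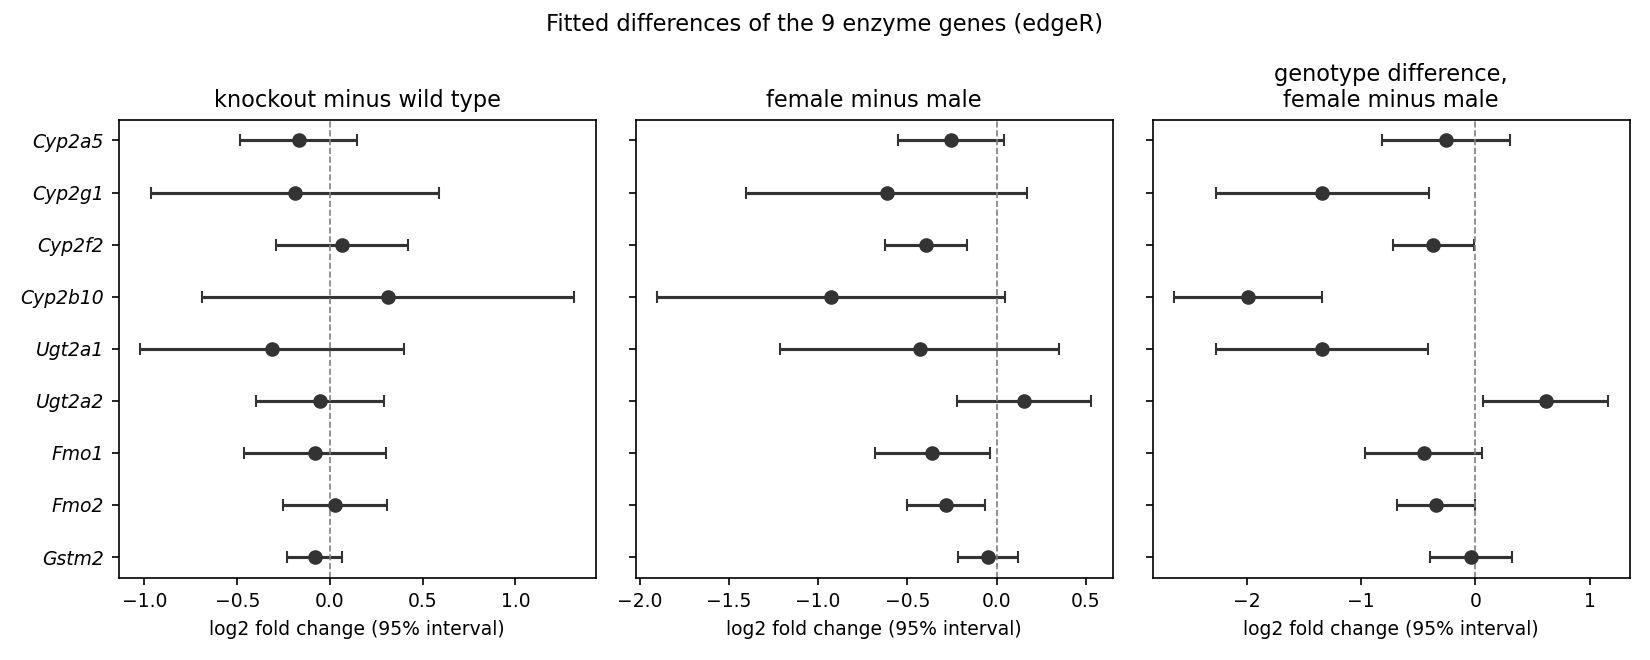
Fitted log2 fold changes (points) with 95% intervals (bars) for knockout against wild type, female against male, and the difference of the genotype effect between sexes, from edgeR. Every genotype interval includes 0. The sex interval excludes 0 for 3 genes and the interaction interval for 6, and none of these passed the adjusted threshold.

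The expression pattern over the 6 mice was then described by log2(CPM + 0.5), centred on each gene's mean, and the likeness of 2 genes by the root mean square distance between such profiles. The choice of members leaves this free, but the distances are descriptions without a test. The closest pairs were Cyp2f2 with Fmo2 (0.07 log2 units), Cyp2a5 with Fmo1 (0.08), Fmo1 with Fmo2 (0.09) and Cyp2g1 with Ugt2a1 (0.10). The last pair joins a P450 and a glucuronosyltransferase that are on different chromosomes. The neighbours at the shared locus, Ugt2a1 and Ugt2a2, were 0.59 apart, and 0.25 without knockout replicate 3. Without that library the distances of the closest pairs were 0.07, 0.08, 0.07 and 0.10 in the same order, and Cyp2a5 with Gstm2 (0.09) then came before Cyp2g1 with Ugt2a1.

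Knockout replicate 3 was the lowest of the 6 libraries for 7 of the 9 genes, all but Ugt2a2 and Gstm2. It was the lowest library for 17.8% of all genes tested. It had 31.9% of the mean CPM of the other 5 libraries for Cyp2b10, 41.8% for Cyp2g1 and 44.5% for Ugt2a1. For Fmo1, Cyp2f2, Cyp2a5 and Fmo2 it had 68.8% to 77.8%, for Gstm2 92.9% and for Ugt2a2 124%. Against the mean of the male knockouts, 3 of the 9 genes were at 50% or less, beside 1.85% of all genes. This library was singled out after its values were seen, and with a single female knockout, sex, genotype and mouse cannot be told apart in it.

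Among 167 members and listed genes averaging 1 CPM or more, those nearest to the mean profile of Cyp2g1 and Ugt2a1 were Cyp1a2 (0.10), Cnga2 (0.11), Gnal (0.11), Stoml3 (0.12) and Aox2 (0.16). These genes were named after their values were seen. Cyp1a2 encodes another P450 and Aox2 an aldehyde oxidase. Cnga2, Gnal and Stoml3 are genes of main olfactory sensory neurons, encoding a cyclic nucleotide-gated channel subunit, the olfactory G protein alpha subunit and a stomatin-like protein of olfactory cilia. In knockout replicate 3 they had 41.1% (Cyp1a2), 46.4% (Cnga2), 40.8% (Gnal), 45.6% (Stoml3) and 47.9% (Aox2) of the mean of the other libraries. Over the other 5 libraries alone, their distances from the pair were 0.11, 0.11, 0.12, 0.12 and 0.16, where a gene that did not vary would be at 0.26. The genes were picked by distance over all 6 libraries, so these percentages and distances are not separate evidence of likeness.

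The marker lists differed in this respect. Of 10 main olfactory neuron genes, 8 were lowest in knockout replicate 3, and the list summed to 782, 792 and 861 CPM in the wild types and 823, 833 and 702 CPM in the knockouts. In that library Cnga2, Gnal and Stoml3 were at 40.8% to 46.4% of the mean of the other libraries. Adcy3 was at 70.6% and the remaining genes of the list were at 82.4% to 102%. Of 8 vomeronasal neuron genes, 0 were lowest there. Their sums ran from 4100.0 to 4309 CPM in the wild types and from 3556 to 3717 CPM in the knockouts, and 2 of the 8, Gnao1 and Stom, were called lower in the knockouts, beside 0.761% of all genes called in either direction. Without knockout replicate 3, 1 of the 8 was called, and among males only 0. Of 10 supporting-cell genes, 4 were lowest in knockout replicate 3, among them Gpx6 at 36.7% and Muc16 at 51.4% of the other libraries, while Krt8 and Krt18 were at 98.2% and 102%. The list summed to 1339 to 1445 CPM. Of 13 gland and lipocalin genes tested, 2 were lowest there, Sec14l3 at 26.0% and Bpifa1 at 87.4% of the other libraries. Dcpp1 was at 7.76% there, Obp1a at 43.6% and Obp1b at 54.1%. Obp2b, Lcn3, Obp2a, Lcn11 and Lcn4 were at 70.6% to 87.9%, whereas Aqp5, Sox9 and Muc5b were at 106%, 112% and 163%. The part of main olfactory tissue, supporting cells or glands in the levels of the enzyme genes was not tested.

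**Figure D4:**
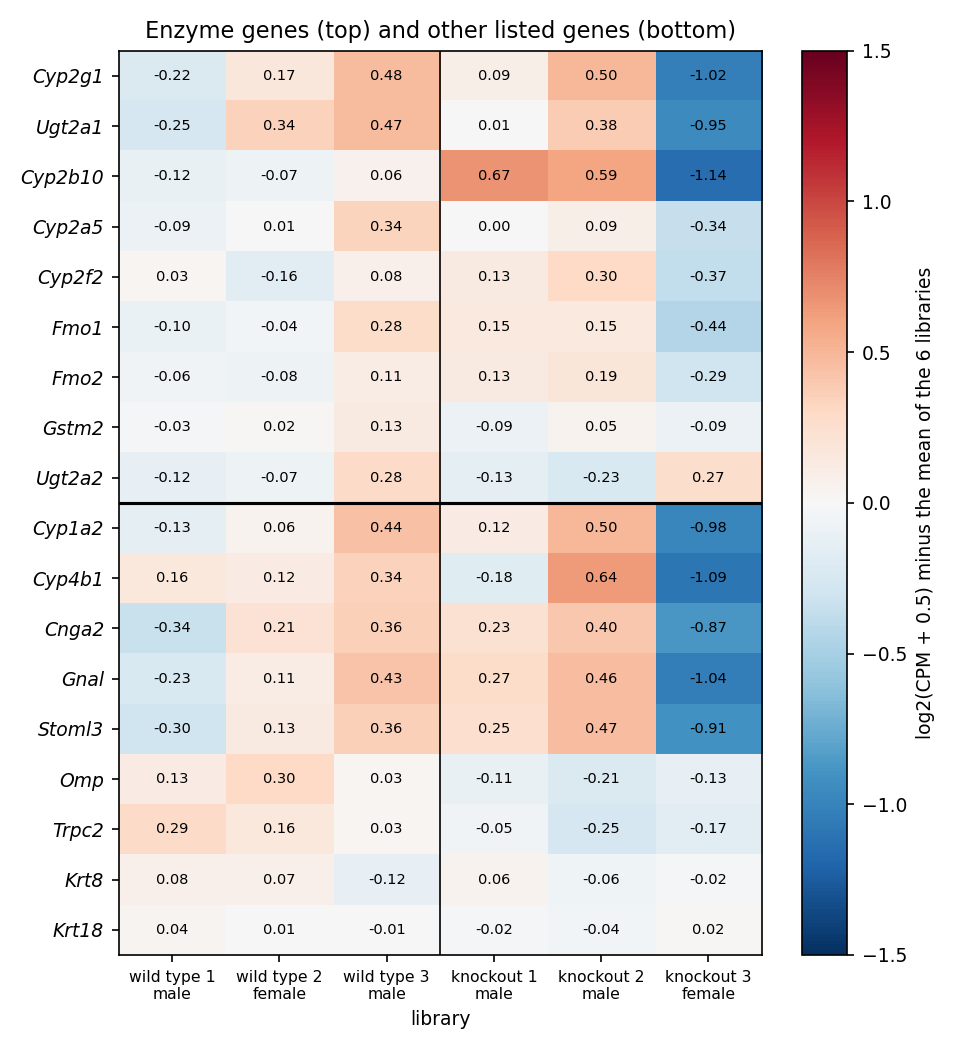
Centred log2(CPM + 0.5) of the 9 enzyme genes (above the line) and of other listed genes (below it, chosen after their values were seen) in the 6 libraries, with blue for values under and red for values over the mean of the libraries. Cyp2g1, Ugt2a1, Cyp1a2, Cnga2, Gnal and Stoml3 are all at their lowest in knockout replicate 3, whereas Omp, Trpc2, Krt8 and Krt18 are not.

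Over the whole table, the genes nearest to the mean profile of the 9 enzymes were Sprn (0.04), Kcnc4 (0.07), Gm21992 (0.09), Bmp3 (0.10), Hsd11b1 (0.10) and Galnt14 (0.10), out of 882 genes that averaged 1 CPM or more and varied at least as widely. Hsd11b1 encodes the enzyme that regenerates active glucocorticoid, Bmp3 a secreted growth factor and Kcnc4 a potassium channel. All 6 were lowest in knockout replicate 3, where the mean profile by which they were picked is also lowest. Sprn had 2.08 CPM there and 2.96 to 3.85 CPM in the other libraries. Nearest to the pair of Cyp2g1 and Ugt2a1, out of 190 such genes, were Tac4 (0.10), Gnal (0.11), Prss33 (0.13), Rgr (0.14), Olfr124 (0.15) and Scgb1c1 (0.16). Without knockout replicate 3 the distances of the first 6 genes were 0.05 to 0.11 and those of the second 6 were 0.09 to 0.18. A gene that did not vary over those 5 libraries would be at 0.13 from the first profile and 0.26 from the second. Both sets were picked over all 6 libraries, so their distances over 5 are not separate evidence of likeness. Olfr124 is an olfactory receptor gene and Scgb1c1 a secretoglobin gene. This second profile was added after the values were seen.

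Females were compared with males because xenobiotic enzymes differ between the sexes in other mouse tissues. None of the 9 genes passed an adjusted p of 0.05 with 2 females and 4 males, beside 0.042% of all genes tested. Of the 9, 8 were lower in females, with a median log2 difference of -0.36 beside -0.00043 over all genes tested. Of these, 3 had an unadjusted p under 0.05, beside 5.5% of all genes. The clearest was Cyp2f2, with 595 and 518 CPM in the females and 679.5 to 819 CPM in the males (log2 difference -0.40, SE 0.10, edgeR adjusted p = 0.856). Fmo2 also had both females below all males (29.9 and 34.8 against 35.4 to 41.9 CPM, log2 difference -0.28, SE 0.09, edgeR adjusted p = 0.856), which was the case for 6.48% of all genes. Fmo1 did not separate the sexes (log2 difference -0.36, SE 0.14, edgeR adjusted p = 0.856). The sizes depended on knockout replicate 3, 1 of the 2 females. Without it the log2 difference was -0.22 for Cyp2f2, -0.11 for Fmo2, -0.14 for Fmo1, -0.055 for Cyp2b10 and -0.0018 for Cyp2g1. The median of the 9 was then -0.11, and Ugt2a1 was above 0 (0.19) while Ugt2a2 was below it (-0.17). DESeq2, run with all 6 libraries, where it called 0.354% of all genes between the sexes, called Cyp2f2 (adjusted p = 0.0177) and no other of the 9.

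The genotype effect was compared between the sexes with an interaction term, where each sex and genotype has at most 2 mice and the females 1 each. No member was called (0.024% of all genes were), while 6 of the 9 (Cyp2b10, Cyp2g1, Ugt2a1, Ugt2a2, Cyp2f2 and Fmo2) had an unadjusted p under 0.05, beside 4.5% of all genes. The lowest p was that of Cyp2b10, whose log2 interaction was -1.99 (SE 0.27, edgeR adjusted p = 0.240). With DESeq2, which called 0.234% of all genes, its adjusted p was 0.00291, and in edgeR without the filter on low counts, where 0.0962% were called, it was 0.0245. Cyp2g1 and Ugt2a1 each had a log2 interaction of -1.34 (edgeR adjusted p = 0.958 for each) and Ugt2a2 one of 0.61 (edgeR adjusted p = 0.958). These values rest on knockout replicate 3, since no other library is a female knockout. The median log2 interaction was -0.37 for the 9 enzymes and -0.66 for vascular and mesenchymal genes, with all 7 of the latter below 0. The CPM sum of that list was lowest in wild-type replicate 3 (2110), with 2318 in knockout replicate 3. Medians were -0.34 for gland and lipocalin, -0.18 for main olfactory neuron, -0.16 for supporting-cell and -0.14 for horizontal basal cell genes. They were 0.03 for vomeronasal neuron, 0.19 for immune, 0.21 for respiratory and ciliated and 0.29 for hepatocyte genes. The part of these cells in the values of the enzymes was not tested.

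The rest of the pathway was followed through lists of other enzymes, their partners and the factors that sense xenobiotics. Of the 106 listed genes that could be tested, edgeR called 0 for genotype and the median log2 fold change was 0.02. An unadjusted p under 0.05 was found for 9, a smaller share than the 10.5% of all genes tested. DESeq2 called 2 of the 106, also a smaller share than the 2.46% of all genes: Cyp2j9 (log2 fold change -0.30, adjusted p = 0.0461) and the retinol-metabolising Dhrs9 (0.74, adjusted p = 0.000367), for which edgeR gave an adjusted p of 0.166 and 0.163. Without knockout replicate 2, edgeR also called Dhrs9 (0.92, adjusted p = 0.0204). Among 17 other P450 genes, Cyp2j6 (31.3 ± 3.43 TPM, SD, n = 6), Cyp39a1 (20.6 ± 1.97 TPM) and Cyp4b1 (17.2 ± 5.48 TPM) had the highest levels, all below Cyp2g1. Cyp4b1, a P450 abundant in lung, had 38.5% of the mean of the other libraries in knockout replicate 3, where Cyp2j6 had 103% and Cyp39a1 98.6%.

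The partners that feed electrons to P450 enzymes varied little. Por, the reductase that serves all microsomal P450 enzymes, was at 496 to 535 CPM over the 6 libraries (log2 fold change 0.03, SE 0.06, edgeR adjusted p = 0.919). Cyb5a and Cyb5r3, cytochrome b5 and its reductase, had log2 fold changes of -0.0024 and -0.016. Of the 7 listed partners, 2 were lowest in knockout replicate 3. Ugdh, which makes the UDP-glucuronic acid that glucuronosyltransferases use, was at 27.0 ± 3.04 TPM, far below Ugt2a2, and differed between the genotypes by 0.09 on the log2 scale (SE 0.09, edgeR adjusted p = 0.798). Ugt1a6a was at 25.2 ± 2.12 and Ugt1a6b at 4.91 ± 0.534 TPM. None of the 6 other glucuronosyltransferase list genes tested was called.

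Gstm2 was exceeded in mean TPM by 6 other listed glutathione transferase genes. The 3 highest were Gsto1 at 448 ± 88.5, Gstm1 at 354 ± 51.4 and Gstp1 at 260.1 ± 31.6 TPM (SD, n = 6), and Gsta4, Mgst3 and Mgst1 were at 208, 152 and 148 TPM. In the knockouts Gsto1 differed by 0.24 log2 units (SE 0.11, edgeR adjusted p = 0.517) and Gstm1 by -0.14 (SE 0.11, edgeR adjusted p = 0.735). The most abundant listed oxidoreductase was Cbr2, a carbonyl reductase known from lung, at 2411 ± 222 TPM, above every one of the 9 enzymes. Aldh2 (291 ± 20.5 TPM), the mitochondrial aldehyde dehydrogenase, and Ephx1 (136 ± 11.7 TPM), microsomal epoxide hydrolase, followed. The log2 fold changes of these 3 genes were 0.02, 0.0088 and -0.0042. Among the sensing factors, Nfe2l2 (136 ± 19.8 TPM), the regulator of the antioxidant response, its inhibitor Keap1 (32.1 ± 2.79 TPM) and the shared nuclear receptor partner Rxra (17.9 ± 2.11 TPM) had the highest levels and log2 fold changes of 0.04 to 0.07.

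Between females and males, other listed genes were also compared. Cyp4a12b, of a P450 family known as male-predominant in mouse kidney, had 4.23 and 4.39 CPM in the females and 7.07 to 10.3 CPM in the males. Its log2 difference was -0.97 (SE 0.13, edgeR adjusted p = 0.238; DESeq2 adjusted p = 9.21e-07; edgeR without the filter on low counts, adjusted p = 0.0447), and it was named after its values were seen. DESeq2 also called the dehydrogenase genes Adh1, Adh7 and Aldh3a1 lower in females, again named after their values were seen, with log2 differences of -0.45, -0.39 and -0.54. Among the other flavin monooxygenase genes, Fmo5 (4.68 ± 0.617 TPM) and Fmo6 (2.29 ± 0.524 TPM) were both lowest in the female knockout.

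**Figure D5:**
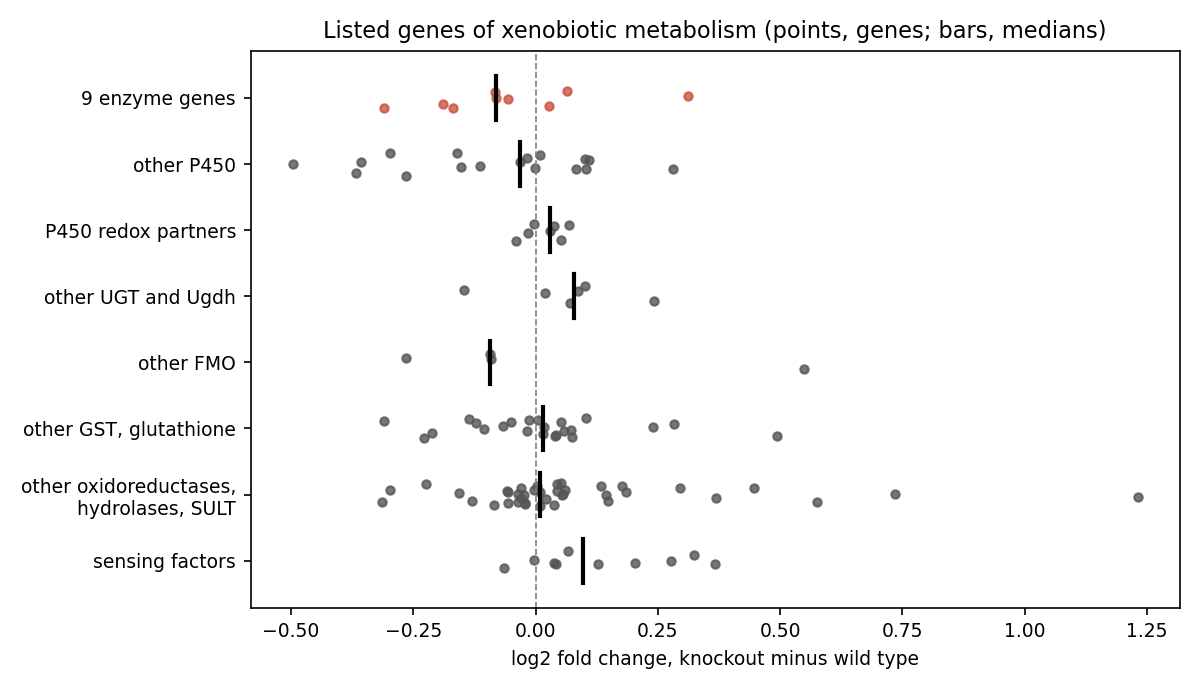
Log2 fold changes, knockout minus wild type, of the 9 enzyme genes (red) and of the other listed genes tested (grey, one point a gene), with the median of each group as a bar. The medians lie close to 0, between -0.09 and 0.10.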

How the data were processed

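The authors deposited 1 table per library with estimated counts (expected reads), TPM and an effective length for 117081 Ensembl transcripts, per the file headers. Trim Galore 0.6.6, Salmon 1.9.0, DESeq2 and the builds mm10 and GRCm38 are named in the submitters' processing notes, without roles. The tables hold estimated reads and not read positions, so reads of like transcripts were divided by estimation.

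Transcripts were joined to GENCODE M21 (GRCm38) genes by identifier. The 1139 unmatched transcripts held 0.304% of the reads and were left out. Estimated counts were summed per gene and rounded, and deposited TPM were summed per gene.

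Tests used edgeR 4.0.16 (quasi-likelihood, TMM scaling, filterByExpr, R 4.3.3) over 16679 genes, for genotype, sex and their interaction, with an adjusted p of 0.05 as the threshold. The common biological coefficient of variation was 12.8%. SEs and 95% intervals come from the same fits. DESeq2 1.42.0 and limma-voom (limma 3.58.1) were alternatives. The fits were checked on simulated data.

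The 9 members and all lists were chosen with earlier results of these data known. The text names all members, Cnpy1, the called genes and the 3 highest by mean TPM of each enzyme list, and the 6 genes nearest in profile. Others are said to be chosen after their values were seen, apart from relatives, partners and marker genes named beside a result. One listed gene is not reported here.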

Additional observations from a re-analysis of the deposited data

How the results depend on the processing

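None of the 9 enzymes was called between the genotypes under any of 17 alternatives, and over 158 member values the lowest adjusted p was 0.0526 (Cyp2b10 without knockout replicate 3). Of those values 144 kept their direction and 14 reversed, all small. Among males only, Cyp2g1 was 0.14, Ugt2a1 0.048 and Fmo1 0.047. Without scaling factors Fmo2 was -0.014. Leaving out 1 library in turn gave 0.0076 to 0.74 for Cyp2b10, -0.62 to -0.017 for Ugt2a1, -0.26 to -0.033 for Cyp2a5, -0.13 to -0.037 for Gstm2, -0.54 to 0.14 for Cyp2g1, -0.078 to 0.23 for Cyp2f2, -0.22 to 0.083 for Ugt2a2, -0.18 to 0.092 for Fmo1 and -0.063 to 0.16 for Fmo2. For female minus male the ranges were -1.16 to 0.19 for Ugt2a1 and -0.17 to 0.45 for Ugt2a2, each turned by leaving out knockout replicate 3. Without scaling factors Gstm2 was 0.025 between the sexes and 0.066 in the interaction. Cyp2b10 was called between the sexes without wild-type replicate 2 (-2.04, adjusted p = 0.0426), where knockout replicate 3 is the only female.

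Genes called between the genotypes numbered 127, 411 with DESeq2, 76 among males only and 69 to 96 with 1 library left out. Between the sexes 7 were called, 12 without the filter, 59 with DESeq2 and 4 to 10 with 1 library left out. For the interaction 4 were called, 7 without scaling factors, 22 without the filter and 39 with DESeq2. The causes were not tested. TPM computed with the effective length of the main transcript moved Ugt2a2 to 617, Fmo1 to 16.1 and Fmo2 to 12.2.

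The labels number replicates alike in each genotype. The same-number correlations of deviations from the group means were 0.15, -0.09 and 0.23, beside -0.29 to 0.17 for unlike numbers. So few correlations cannot decide whether the numbers pair the mice. With a replicate block 154 genes were called, and none of the 9.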
